A study of Mus musculus with 16 samples.

Results

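The forkhead transcription factors of the mouse were followed through 10 peak lists from chromatin immunoprecipitation sequencing (ChIP-seq) of embryonic stem (ES) cells and of neural progenitor cells (NPC). Members were the protein-coding genes of the GENCODE M1 annotation of mm9 whose symbol is Fox, 1 letter and digits, and 42 of 22232 protein-coding genes met that rule. Foxf1a was left out because its symbol ends in a letter, and Foxl1 because this annotation holds it as a pseudogene. All cells came from 46C, a mouse ES line with a Sox1-GFP reporter, grown on inactivated fibroblasts in LIF and the 2i inhibitors or taken to day 6 of neural differentiation in suspension, the day given by the study's methods. Wild-type cells and cells labelled shPCGF5, which stably carry a short hairpin RNA against Pcgf5, were each profiled for H2AK119ub1 and H3K27me3 at both stages. The shPCGF5 cells descend, per the methods, from picked clones after lentiviral infection and puromycin selection, so that a property of a clone and an effect of the hairpin cannot be told apart. In 2 further libraries, labelled wild type, PCGF5 was precipitated through a Flag tag, and the methods describe a line in which the tag was knocked into Pcgf5. Each group had 1 library, so no difference below has a replicate check and no test was possible. The lists hold peaks and no expression values, so neither the loss of Pcgf5 nor the neural identity of the differentiated cells could be checked in them.

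Forkhead proteins bind DNA through a winged-helix domain and are known as regulators of lineage choice, for example Foxa2 in endoderm and Foxc1 and Foxc2 in mesoderm. Many genes of this kind are classical targets of the Polycomb repressive complexes in ES cells. PRC1 places a single ubiquitin on a lysine near the end of histone H2A (H2AK119ub1), PRC2 trimethylates a lysine in the tail of histone H3 (H3K27me3), and PCGF5 is the PCGF subunit of a variant form of PRC1.

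The stretch of 200 bases just before the annotated start is shown for 5 members that mark out the patterns described below. Foxl2 had peaks of both histone marks in all 8 histone lists, Foxd3 had far longer H3K27me3 peaks in NPC than in ES cells, Foxb1 had a Flag-PCGF5 peak together with both marks in NPC, Foxo3 had the longest Flag-PCGF5 peak without a histone peak in NPC, and Foxp3 had no peak in any list. The sequences are from mm9, read 5′ to 3′ on the coding strand, capitals mark each CpG dinucleotide, and none of them overlaps an exon of an annotated protein-coding transcript.
Foxl2 (chr9:98855826-98856025, plus strand): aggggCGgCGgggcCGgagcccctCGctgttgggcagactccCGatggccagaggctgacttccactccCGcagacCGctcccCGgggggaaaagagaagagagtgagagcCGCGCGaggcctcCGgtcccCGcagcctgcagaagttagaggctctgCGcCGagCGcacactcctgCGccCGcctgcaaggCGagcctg
Foxd3 (chr4:99322790-99322989, plus strand): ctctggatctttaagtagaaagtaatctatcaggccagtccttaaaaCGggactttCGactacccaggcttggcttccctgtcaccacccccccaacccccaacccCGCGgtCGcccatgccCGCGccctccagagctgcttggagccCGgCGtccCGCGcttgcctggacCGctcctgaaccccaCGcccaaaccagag
Foxb1 (chr9:69608748-69608947, minus strand): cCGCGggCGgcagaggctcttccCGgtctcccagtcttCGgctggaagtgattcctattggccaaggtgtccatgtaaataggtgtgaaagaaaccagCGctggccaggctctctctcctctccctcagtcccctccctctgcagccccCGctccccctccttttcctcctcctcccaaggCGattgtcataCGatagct
Foxo3 (chr10:41996562-41996761, minus strand): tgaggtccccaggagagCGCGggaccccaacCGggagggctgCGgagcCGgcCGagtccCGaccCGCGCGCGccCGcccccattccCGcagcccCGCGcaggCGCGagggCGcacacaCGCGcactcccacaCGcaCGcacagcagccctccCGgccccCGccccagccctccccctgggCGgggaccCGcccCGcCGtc
Foxp3 (chrX:7156602-7156801, plus strand): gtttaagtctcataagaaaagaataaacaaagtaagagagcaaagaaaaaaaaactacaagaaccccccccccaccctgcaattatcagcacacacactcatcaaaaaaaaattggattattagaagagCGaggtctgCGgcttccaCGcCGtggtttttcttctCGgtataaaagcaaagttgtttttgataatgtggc
These stretches held 19 CpG dinucleotides at Foxl2, 13 at Foxd3, 9 at Foxb1, 28 at Foxo3 and 5 at Foxp3. H3K27me3 peaks of both NPC populations covered all 200 bases at Foxl2. At Foxd3 the wild-type NPC peak covered all 200 bases and the shPCGF5 peak covered 48. The Flag-PCGF5 peak in NPC covered all 200 bases at Foxb1 and Foxo3. Over the Foxb1 stretch the shPCGF5 H3K27me3 peaks covered 109 bases in ES cells and 153 in NPC, and no wild-type histone peak reached it. The number of CpG dinucleotides directly before the start did not sort these members by mark, since the stretch richest in CpG, at Foxo3, carried no histone peak in any list.

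The 8 histone lists held between 3845 and 14759 peaks with median widths of 216 to 453 bp, and the Flag-PCGF5 lists held 653 peaks in ES cells and 12013 in NPC. Read totals are not in the lists, so the depth behind each is unknown. A list names only peaks that passed the caller's threshold, and a gene without a peak may still carry some of the mark. A gene was counted as having a peak when the centre of a peak fell no more than 2500 bp from the start of any of its protein-coding transcripts, and its covered length is the summed width of those peaks. Histone libraries were made from chromatin digested with MNase and Flag libraries from sonicated chromatin, so peak widths are compared between histone libraries only.

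Forkhead genes carried Polycomb peaks several times as often as protein-coding genes at large. H3K27me3 peaks stood at 24 of the 42 members in wild-type ES cells (57.1%, 95% Wilson interval 42.2 to 70.9) and at 24 in wild-type NPC, against 13.4% and 15.7% of all genes. In shPCGF5 cells the counts were 22 in ES cells (52.4%, 37.7 to 66.6) and 23 in NPC (54.8%, 39.95 to 68.78), against 12.9% and 15.4%. H2AK119ub1 peaks stood at 16 members in wild-type ES cells (38.1%, 25 to 53.2), 17 in shPCGF5 ES cells (40.5%, 27.04 to 55.51), 17 in wild-type NPC and 15 in shPCGF5 NPC (35.7%, 23.0 to 50.8). The share of all genes was 6.69%, 5.96%, 4.98% and 4.17% in the same order. The intervals cover counting error only. Both genotypes were scored on the same 42 genes with 1 library each, so the intervals cannot be used to compare genotypes. Flag-PCGF5 peaks stood at 2 members in ES cells (4.76%, 1.32 to 15.8) against 0.787% of all genes, and at 13 in NPC (31.0%, 19.1 to 46.0) against 13.7%. H2AK119ub1 in wild-type NPC stood at 10 members within a window of 1000 bp, and the equal number of 3845 top peaks per histone list left H3K27me3 at 15 members in wild-type and 13 in shPCGF5 ES cells. The share of all genes was not computed under these settings, so whether the excess at forkhead genes changes there is not known.

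**Figure D1:**
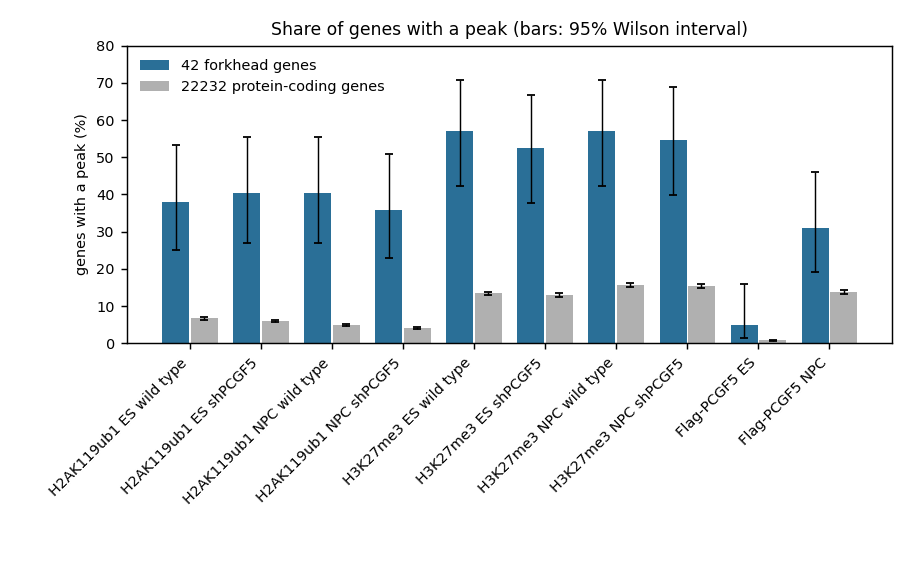
Percent of genes with a peak centre within 2500 bp of a start site (vertical axis) in each of the 10 lists (horizontal axis), for the 42 forkhead genes (blue) and all 22232 protein-coding genes (grey); lines are 95% Wilson intervals for counting error. The forkhead share lies between 35.7% and 57.1% in the 8 histone lists, where the share of all genes lies between 4.17% and 15.7%.

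Among genes with a peak, forkhead genes also had the greater covered length, which sums all peaks of a gene and is not the width of single peaks. The median covered length of H3K27me3 was 1204 bp at marked forkhead genes and 556.5 bp at all marked genes in wild-type ES cells, and 3675 bp against 1303 bp in wild-type NPC. The medians in shPCGF5 cells were 982.5 bp against 521 bp in ES cells and 2776 bp against 940 bp in NPC. For H2AK119ub1 the pairs were 571 and 322.5 bp in wild-type ES cells, 448 and 311 bp in shPCGF5 ES cells, 1278 and 387 bp in wild-type NPC, and 1018 and 299 bp in shPCGF5 NPC. Forkhead genes thus had the longer median in all 8 histone lists.

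Members ranged from those with a histone peak in every list to those with none. Peaks were present in all 8 histone lists at Foxa2, Foxb1, Foxb2, Foxc1, Foxc2, Foxd1, Foxd2, Foxe1, Foxe3 and Foxl2, which are 23.8% of the family, where 1.42% of all genes had as many. A further 5 members, among them Foxa1, Foxd4, Foxf2 and Foxi3, had a peak in 7 of the 8, and 14 members (33.3%) had peaks in 1 to 6. No histone peak was found at 13 members (31.0%), against 75.4% of all genes, and 8 of these, Foxj3, Foxn2, Foxn3, Foxo4, Foxp1, Foxp3, Foxr1 and Foxr2, had no peak in any of the 10 lists. The share of all genes was not computed for peaks in 7 lists, in 1 to 6, or in none of the 10.

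**Figure D2:**
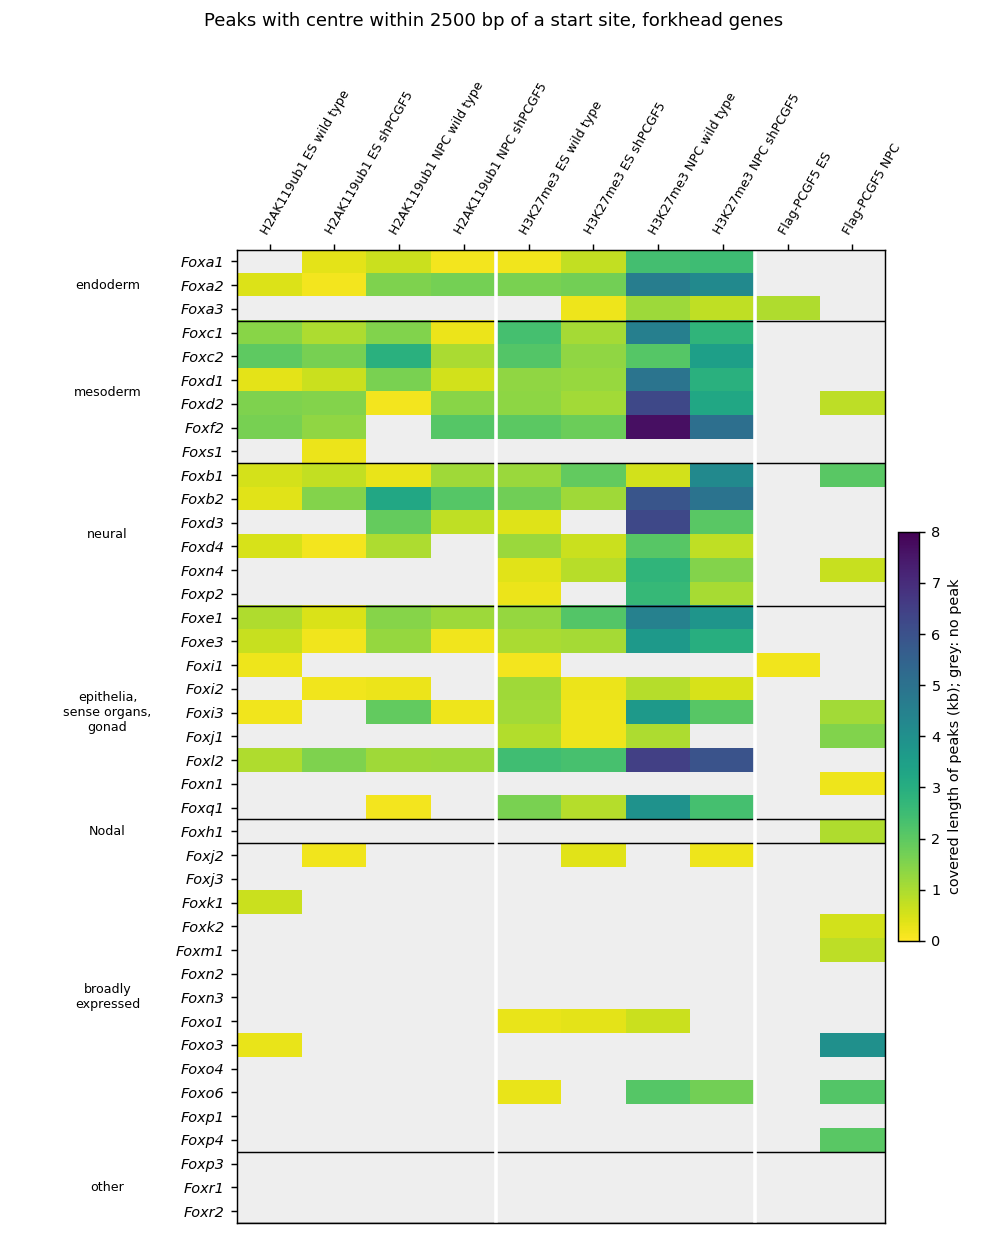
Covered length of peaks in kb (colour; grey where there was no peak) for forkhead genes (rows, grouped by role) in each of the 10 lists (columns). Dark cells gather in the NPC H3K27me3 columns of the endoderm, mesoderm, neural and epithelial groups, up to 7665 bp at Foxf2 in wild-type NPC, and in the broadly expressed group most cells are grey.

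The 3 Foxa genes encode pioneer factors of endoderm, the layer that forms liver, lung and gut. Foxa2 carried 1608 bp of H3K27me3 in wild-type ES cells, 1696 bp in shPCGF5 ES cells, 4599 bp in wild-type NPC and 4198 bp in shPCGF5 NPC. Its H2AK119ub1 covered 429, 140, 1544 and 1685 bp in the same order. Both marks were thus longer in NPC than in ES cells, with similar values for the genotypes in NPC. At Foxa1 H3K27me3 covered 172 bp in wild-type and 723 bp in shPCGF5 ES cells, and 2376 and 2480 bp in NPC. Foxa3 had no H2AK119ub1 peak and carried H3K27me3 over 213 bp in shPCGF5 ES cells, 1169 bp in wild-type NPC and 777 bp in shPCGF5 NPC.

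Of the 6 members with roles in mesoderm and its derivatives, 5 had H3K27me3 in all 4 populations, and Foxs1 alone had none. Foxf2, a gene of gut and palate mesenchyme, had H3K27me3 over 2031 bp in wild-type ES cells, 1788 bp in shPCGF5 ES cells, 7665 bp in wild-type NPC and 5090 bp in shPCGF5 NPC. Its value in wild-type NPC was the longest H3K27me3 cover of any member in any list. Counted as bases inside the window, it was 4746 bp, below the 5001 bp of Foxb2. Foxc1, needed for eye, heart and vessel development, had 2370, 1093, 4548 and 2776 bp in that order. Foxd1, a gene of kidney stroma, had 1324, 1245, 4914 and 2912 bp, and Foxd2 had 1356, 1097, 6274 and 3227 bp. These 4 genes had their highest value in wild-type NPC. Foxc2, with 2128, 1331, 2107 and 3485 bp, had its highest value in shPCGF5 NPC by this count. H2AK119ub1 covered 1975 bp at Foxc2 in wild-type ES cells, 1635 bp in shPCGF5 ES cells, 2921 bp in wild-type NPC and 1018 bp in shPCGF5 NPC. It covered 1425, 995, 1521 and 245 bp at Foxc1 and 340, 648, 1600 and 550 bp at Foxd1 in the same order. These 3 were longest in wild-type NPC and shorter in shPCGF5 NPC. Foxd2, with 1533, 1489, 138 and 1413 bp, and Foxf2, with 1645, 1337, 0 and 2115 bp, ran the other way and were shortest in wild-type NPC, an order that for Foxd2 depended on the counting described below. Foxs1 had a single H2AK119ub1 peak of 221 bp in shPCGF5 ES cells.

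All 7 members with neural roles carried H3K27me3 in wild-type ES cells and in both NPC populations. Foxd3, a factor of pluripotent cells and later of the neural crest, had 377 bp in wild-type ES cells, no peak in shPCGF5 ES cells, 6253 bp in wild-type NPC and 2047 bp in shPCGF5 NPC. Counted as bases inside the window, Foxd3 had 4450 bp in wild-type and 2047 bp in shPCGF5 NPC. Its H2AK119ub1 was listed in NPC alone, with 1900 bp in wild-type and 780 bp in shPCGF5 cells. Foxd3 therefore went from little or no listed mark in ES cells to broad cover of both marks in NPC, and the cover was shorter in shPCGF5 NPC. Foxb2, a gene of the developing brain and spinal cord, had H3K27me3 over 1727, 1137, 5898 and 4962 bp, and its H2AK119ub1 of 3215 bp in wild-type NPC was the longest of the family. Foxd4, Foxn4 and Foxp2 had H3K27me3 over 2080, 2768 and 2630 bp in wild-type NPC and over 779, 1497 and 1056 bp in shPCGF5 NPC.

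Among the 9 members known from epithelia, sense organs or gonads, 8 had H3K27me3 in wild-type ES cells and 7 in wild-type NPC. Foxl2, which maintains the ovary, had 2443 bp in wild-type ES cells, 2318 bp in shPCGF5 ES cells, 6476 bp in wild-type NPC and 5952 bp in shPCGF5 NPC. Foxe1, a thyroid and palate factor, had 1267, 2131, 4478 and 3821 bp, and Foxe3, a lens factor, had 1026, 1066, 3683 and 2976 bp. Foxq1 had 1614, 899, 3915 and 2352 bp. Foxi3 had 1114, 209, 3667 and 2079 bp. These 5 genes had their highest value in wild-type NPC. Foxi1, a gene of the inner ear and kidney, had H3K27me3 over 152 bp and H2AK119ub1 over 206 bp in wild-type ES cells and no histone peak elsewhere. Foxj1, the master regulator of motile cilia, had 917, 201 and 998 bp in the first 3 populations and no peak in shPCGF5 NPC.

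The 13 broadly expressed members, which include the FoxO proteins downstream of insulin signalling and the cell-cycle factor Foxm1, carried H3K27me3 about as often as genes at large. It stood at 2 of the 13 in each of the 4 populations, where 12.9% to 15.7% of all genes had it. Foxo1, Foxo6 and Foxj2 were the members concerned, and only Foxj2, Foxk1 and Foxo3 carried H2AK119ub1, each in 1 list. Foxo6, a FoxO gene with strong expression in brain, was the exception in length, with 2122 bp of H3K27me3 in wild-type NPC and 1716 bp in shPCGF5 NPC. Foxh1, the partner of Smad proteins in Nodal signalling, and the immune regulator Foxp3 had no histone peak in any list.

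From wild-type ES cells to wild-type NPC, the listed H3K27me3 became longer at most marked members, as it did at most marked genes. Of the 25 forkhead genes with a peak at either stage, 21 had more covered length in NPC (84%), where 73.6% of all genes with a peak at either stage did. The summed length over the family was 27886 bp in ES cells and 85390 bp in NPC, a log2 ratio of 1.61 against 1.44 for all genes. Peaks were listed in ES cells alone at Foxi1 (3.81% of all genes) and in NPC alone at Foxa3 (6.08%). Of the 4327 genes with a peak at either stage, 847 had it in ES cells alone and 1351 in NPC alone. The 4 members with more in ES cells were Foxb1, Foxc2, Foxi1 and Foxi2. For Foxc2 this order depended on the counting, because a wide peak in wild-type NPC had its centre outside the window: counted as bases inside the window, Foxc2 had 2128 bp in ES cells and 4510 bp in NPC. H2AK119ub1 covered more in NPC at 15 of 21 forkhead genes (71.4%) and at 42.8% of all genes, although the summed length was greater in NPC for both. The summed H2AK119ub1 length was 12595 bp in ES cells and 22052 bp in NPC, a log2 ratio of 0.81 against 0.25 for all genes. H2AK119ub1 was listed in ES cells alone at Foxf2, Foxi1, Foxk1 and Foxo3 (4.22% of all genes) and in NPC alone at 5 members, among them Foxa1, Foxd3, Foxi2 and Foxq1 (2.51%). Of the 2046 genes with a peak at either stage, 938 had it in ES cells alone and 558 in NPC alone, next to 4 and 5 of the 21 members. In shPCGF5 cells 22 of 25 members had more H3K27me3 in NPC (all genes 72.5%), and 9 of 19 had more H2AK119ub1 in NPC (47.4%, all genes 35.4%).

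In NPC the H3K27me3 peaks of most members covered less sequence in shPCGF5 cells than in wild-type cells. Covered length was higher in wild-type NPC at 21 of the 25 members with a peak in either genotype (84%), against 62.6% of all such genes. Within a window of 1000 bp the balance was closer, with more in wild-type NPC at 16 members and in shPCGF5 NPC at 9. Among the 22 members with a peak in both, the median of the log2 length in shPCGF5 minus that in wild-type cells was -0.65, against -0.37 for the 2648 such genes of the whole annotation. Foxd3 had one of the widest gaps, with 6253 bp in wild-type and 2047 bp in shPCGF5 NPC, or 4450 and 2047 bp counted as bases inside the window. Peaks were listed in wild-type NPC alone at Foxj1 and Foxo1, and in shPCGF5 NPC alone at Foxj2, where the peak covered 214 bp. The share with a peak in wild-type NPC alone was 3.74% for all genes, and that in shPCGF5 NPC alone 3.54%. Of the 4266 genes with a peak in either genotype, 832 had it in wild-type NPC alone and 786 in shPCGF5 NPC alone.

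Foxb1, a regulator of diencephalon and spinal cord development, ran against this order. Its H3K27me3 covered 1210 bp in wild-type ES cells, 1933 bp in shPCGF5 ES cells, 547 bp in wild-type NPC and 4195 bp in shPCGF5 NPC. Its H2AK119ub1 covered 511, 735, 259 and 1145 bp in the same order. Both marks were thus shortest in wild-type NPC and longest in shPCGF5 NPC. In wild-type NPC the H3K27me3 cover consisted of 2 peaks of 241 and 306 bp, with fold enrichments of 3.23 and 4.37. In shPCGF5 NPC it consisted of 3 peaks of 2106, 387 and 1702 bp, with fold enrichments of 6.48, 4.27 and 6.10. Counting bases inside the window gave the same 547 and 4195 bp. Only 4 of the 25 members (16%) had more H3K27me3 in shPCGF5 NPC, against 37.4% of all genes, and the others were Foxa1 (2376 and 2480 bp), Foxj2 and Foxc2 (2107 and 3485 bp). Counted as bases inside the window, Foxc2 had the reverse order, with 4510 bp in wild-type and 3485 bp in shPCGF5 NPC.

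**Figure D3:**
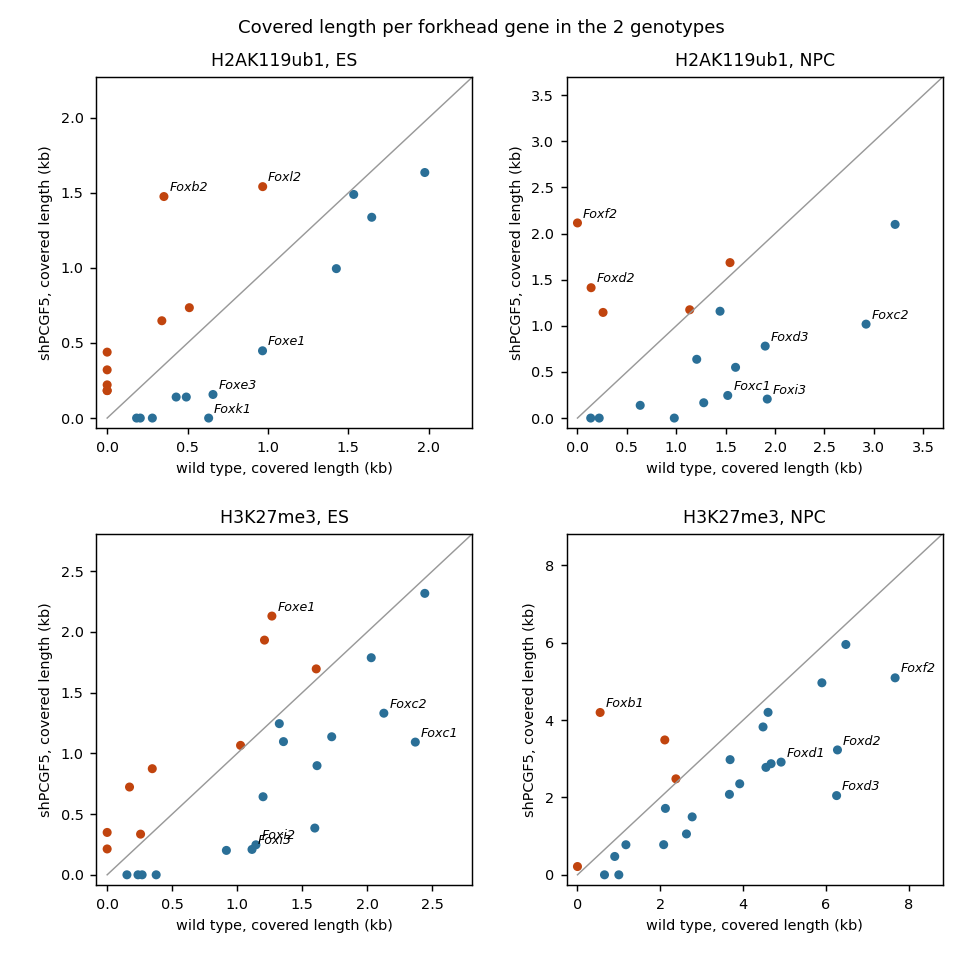
Covered length in kb in wild-type (horizontal axis) and shPCGF5 cells (vertical axis), 1 point per forkhead gene with a peak in either genotype, for each mark and stage; the grey line marks equal length, orange points lie above it, and genes with a wide gap are named. In NPC 21 of 25 points for H3K27me3 lie below the line, and Foxb1 lies far above it at 547 and 4195 bp.

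For H2AK119ub1 in NPC, covered length was higher in wild-type cells at 13 of 18 members (72.2%), against 63.4% of all genes with a peak in either genotype. Over the 14 members with a peak in both, the median of the log2 length in shPCGF5 minus that in wild-type cells was -1.10, against -0.58 for all genes. Foxi3, a gene of hair and teeth, had 1921 bp in wild-type and 206 bp in shPCGF5 NPC, and Foxc1 had 1521 and 245 bp. Both had a single peak left in the shPCGF5 list. Peaks were listed in wild-type NPC alone at Foxd4, Foxi2 and Foxq1, 3 of the 18 members, and at 2.46% of all genes. Of the 1474 genes with a peak in either genotype, 546 had it in wild-type NPC alone and 366 in shPCGF5 NPC alone. The 5 members with more in shPCGF5 NPC (27.8%, all genes 36.6%) were Foxa2, Foxb1, Foxd2, Foxf2 and Foxl2. This order held under a count of bases inside the window for Foxa2, Foxb1 and Foxf2, whereas Foxd2 (138 and 1413 bp by whole peaks) became 1905 bp in wild-type and 1467 bp in shPCGF5 NPC, and Foxl2 (1136 and 1174 bp) became 1502 and 1174 bp. Foxf2 had no wild-type peak with its centre in the window and 2115 bp in shPCGF5 NPC, and 834 and 2077 bp by bases inside the window, so that its listing in shPCGF5 NPC alone (1.65% of all genes) rested on where the wild-type peak was centred.

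In ES cells the median log2 ratio of covered length between genotypes was smaller in size than in NPC, but more members had a peak in 1 genotype alone. Opposite differences cancel in such a median, and single members differed widely in both directions. In wild-type and shPCGF5 ES cells H3K27me3 covered 1114 and 209 bp at Foxi3, and 172 and 723 bp at Foxa1. H3K27me3 covered more in wild-type cells at 17 of 26 members (65.4%), against 54.4% of all genes, and less at 9 (all genes 45.5%), with a median log2 ratio of -0.24 against -0.14. Of the 3739 genes with a peak in either genotype, 867 had it in wild-type and 763 in shPCGF5 ES cells alone, next to 4 and 2 of the 26 members. Peaks were listed in wild-type ES cells alone at Foxd3, Foxi1, Foxo6 and Foxp2 (3.90% of all genes) and in shPCGF5 ES cells alone at Foxa3 and Foxj2 (3.43%). Each of these 6 members had at most 377 bp. H2AK119ub1 covered more in wild-type cells at 12 of 21 members (57.1%), close to the 55.9% of all genes, and less at 9 (all genes 44.1%). The order turned within a window of 1000 bp, with 8 and 9, and was a tie with equal numbers of top peaks, with 8 and 8. Peaks of this mark were listed in wild-type ES cells alone at Foxi1, Foxi3, Foxk1 and Foxo3 (3.43%) and in shPCGF5 ES cells alone at 5 members, among them Foxa1, Foxi2, Foxj2 and Foxs1 (2.69%). Of the 2086 genes with a peak in either genotype, 762 had it in wild-type and 598 in shPCGF5 ES cells alone, next to 4 and 5 of the 21 members.

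The fold enrichment that the caller gave each peak did not always follow the covered length. In NPC the highest H3K27me3 fold at a gene was larger in wild-type cells at 18 of 22 members, against 71.6% of all genes, and smaller at 4 (28.4%), with medians of 7.56 in wild-type and 5.84 in shPCGF5 cells. For H2AK119ub1 in NPC the fold was larger in shPCGF5 cells at 11 of 14 members, against 64.4% of all genes, and smaller at 3 (35.6%), with medians of 4.82 in wild-type and 6.29 in shPCGF5 cells, whereas the length was mostly greater in wild-type cells. Foxc2, an example chosen after the values were seen, showed both at once, with H2AK119ub1 over 2921 bp at a highest fold of 6.46 in wild-type NPC and over 1018 bp at 9.79 in shPCGF5 NPC. In ES cells the H2AK119ub1 fold was larger in wild-type cells at 10 of 12 members (77.8% of all genes), smaller at 2 (22.2%), and the H3K27me3 fold larger in shPCGF5 cells at 16 of 20 (66.6%) and smaller at 4 (33.4%). The direction at forkhead genes was that of all genes in each of the 4 comparisons, and each compares 2 libraries of unknown depth.

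Most members with an H2AK119ub1 peak in the window also had an H3K27me3 peak there, as did most genes. Of the members with H2AK119ub1, 14 of 16 also had H3K27me3 in wild-type ES cells (87.5%, all genes 79.8%), 16 of 17 in shPCGF5 ES cells (94.1%, all genes 73.3%), 17 of 17 in wild-type NPC (all genes 94.9%) and 15 of 15 in shPCGF5 NPC (all genes 92.6%). In the other direction, 10 of the 24 members with H3K27me3 in wild-type ES cells had no H2AK119ub1 peak, against 1789 of all 2976 such genes. The exceptions with H2AK119ub1 alone in wild-type ES cells were Foxk1, with 631 bp of H2AK119ub1, and Foxo3, with 281 bp. In wild-type NPC 7 of the 24 members with H3K27me3 had no H2AK119ub1 peak centred in the window, against 2429 of all 3480 such genes. These members were Foxa3, Foxf2, Foxj1, Foxn4, Foxo1, Foxo6 and Foxp2.

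Flag-PCGF5 peaks in ES cells stood at Foxa3 (chr7:19607710-19608658, fold 4.60) and Foxi1 (chr11:34108325-34108505, fold 3.36), and neither had 1 in NPC, where 117 of all 175 genes with a Flag-PCGF5 peak in ES cells had none either. The start of Sympk, the gene for the scaffold protein symplekin, also lies in the window of Foxa3. In NPC the members with a peak included Foxb1, Foxd2, Foxh1, Foxi3, Foxj1, Foxk2, Foxm1, Foxn1, Foxn4, Foxo3, Foxo6 and Foxp4. The fold enrichment of these peaks ran from 1.92 at Foxh1 to 2.85 at Foxo6, around the median of 2.22 over the whole list, so none stood out in height. Of the 13 members 6 had a peak in the higher-scoring 50% of that list and 0 had 1 among its 653 strongest peaks, and in ES cells 0 members had a peak in the higher-scoring 50%. The same counts were not computed for all genes.

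The 13 members with a Flag-PCGF5 peak in NPC divided by histone state. At 7 of them, among which were Foxb1, Foxd2, Foxi3, Foxj1, Foxn4 and Foxo6, a wild-type H3K27me3 peak was also present (53.8%), against 25.3% of all genes with a Flag-PCGF5 peak in NPC. At Foxh1, Foxk2, Foxm1, Foxn1, Foxo3 and Foxp4 there was none. H2AK119ub1 in wild-type NPC accompanied 4 of the 13 (30.8%, all genes 8.22%), among them Foxb1, Foxd2 and Foxi3. Over all 42 members the shares in wild-type NPC were 57.1% for H3K27me3 and 40.5% for H2AK119ub1. Members with a Flag-PCGF5 peak were thus marked no more often than the family. The Flag-PCGF5 peaks of Foxi3 (chr6:70906304-70907404) and Foxd2 (chr4:114582680-114583468) lay wholly inside wild-type H3K27me3 peaks and shared 1101 and 789 bp with them, and shared 827 and 493 bp with those of shPCGF5 NPC. At Foxb1 the order was the opposite, since its Flag-PCGF5 peak of 2038 bp (chr9:69607047-69609084) shared 321 bp with wild-type and 1805 bp with shPCGF5 H3K27me3 peaks. Foxn4, which acts in retina and spinal cord, had a Flag-PCGF5 peak of 664 bp that shared 427 bp with wild-type and 100 bp with shPCGF5 H3K27me3 peaks. Foxj1 and Foxo6 each had 2 Flag-PCGF5 peaks, of 875 and 644 bp and of 1670 and 476 bp. In each gene 1 of them met H3K27me3 in wild-type NPC, over 327 bp at Foxj1 and 1490 bp at Foxo6, and the other met none.

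The unmarked members with a Flag-PCGF5 peak were mainly broadly expressed genes. Foxo3 (chr10:41994301-41998293) had the longest peak of the family, 3993 bp, reaching from before its outermost start into the gene. Foxp4 (chr17:48060630-48062661) had 2032 bp, Foxm1 (chr6:128312844-128313647) 804 bp and Foxk2 (chr11:121117673-121118204) 532 bp. Foxn1, the thymus regulator and no broadly expressed gene, had the shortest Flag-PCGF5 peak in NPC, 198 bp (chr11:78201097-78201294). These 5 peaks shared no base with a histone peak of either genotype in NPC. At Foxh1 the peak of 944 bp (chr15:76499018-76499961) had its centre in a coding exon, 889 bp downstream of the start, with a fold of 1.92 and no histone peak in any list. The starts of Ppp1r16a and 5930416I19Rik lie in the windows of Foxh1 and Foxm1, so those peaks cannot be given to 1 gene alone.

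**Figure D4:**
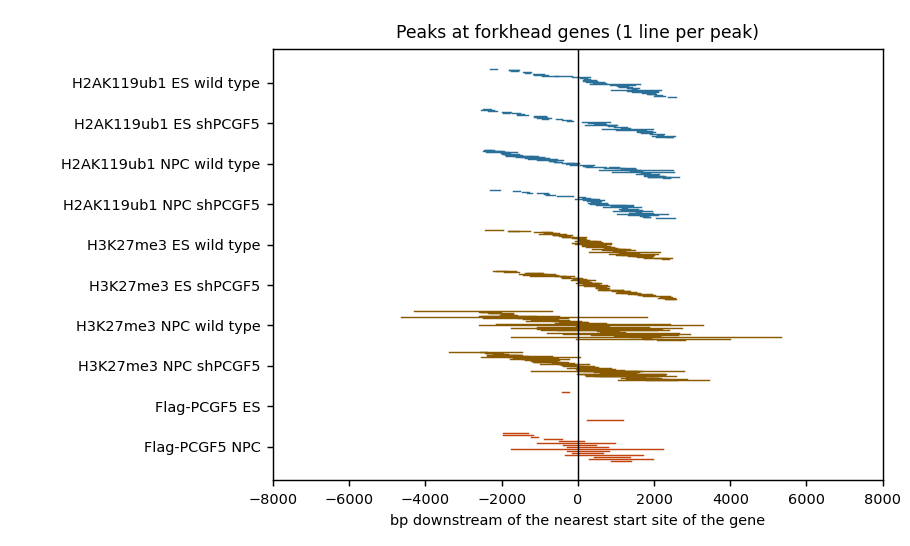
Each line is a peak assigned to a forkhead gene, drawn by its distance in bp from the nearest start site of that gene (horizontal axis, positive downstream; lines may run past 2500 bp because the centre decides), in each of the 10 lists (vertical axis; H2AK119ub1 blue, H3K27me3 brown, Flag-PCGF5 orange). The longest lines are H3K27me3 peaks of wild-type NPC, up to 7099 bp at Foxf2, where shPCGF5 NPC had more but shorter peaks.

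Forkhead genes had fewer but longer H3K27me3 peaks in wild-type NPC than in shPCGF5 NPC, as had the whole lists with 11371 and 14759 peaks. The family had 53 assigned H3K27me3 peaks in wild-type NPC and 70 in shPCGF5 NPC, although the summed length was 85390 bp in the former and 61936 bp in the latter. At Foxf2 the wild-type cover was a peak of 7099 bp and another of 566 bp, and the shPCGF5 cover was 4 peaks of 384, 1168, 1145 and 2393 bp. Foxc1 had 1 peak in wild-type NPC and 4 in shPCGF5 NPC. In ES cells 28 of 59 H3K27me3 peaks of wild-type cells (47.5%) and 23 of 52 of shPCGF5 cells (44.2%) had their centre in a coding exon of the member, against 11 of 53 (20.8%) and 17 of 70 (24.3%) in NPC. Only the centre was placed, so a wide peak centred elsewhere may still cover the coding exon. The same share was not computed for all genes.

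Many marked members were short, intron-poor genes. At most 2 exons were annotated for 20 of the 42 members (47.6%), against 19.9% of all genes, and for 16 of the 18 members with H3K27me3 in all 4 populations (88.9%), against 19.2% of all genes with H3K27me3 in all 4. None of the 13 members without a histone peak had so few exons, where 20.9% of all genes without one did. CpG density depended on which start was read. Within 500 bp of the outermost start, the ratio of observed to expected CpG had a median of 0.75 for the family and 0.55 for all genes, and within the family 0.78 for the 29 members with a histone peak and 0.29 for the 13 without. With the highest value over all starts of a gene, the 2 medians were 0.78 and 0.72, and the gap was much smaller. Foxp1, with 8 annotated starts, had 0.23 at the outermost and 0.82 at the highest.

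**Figure D5:**
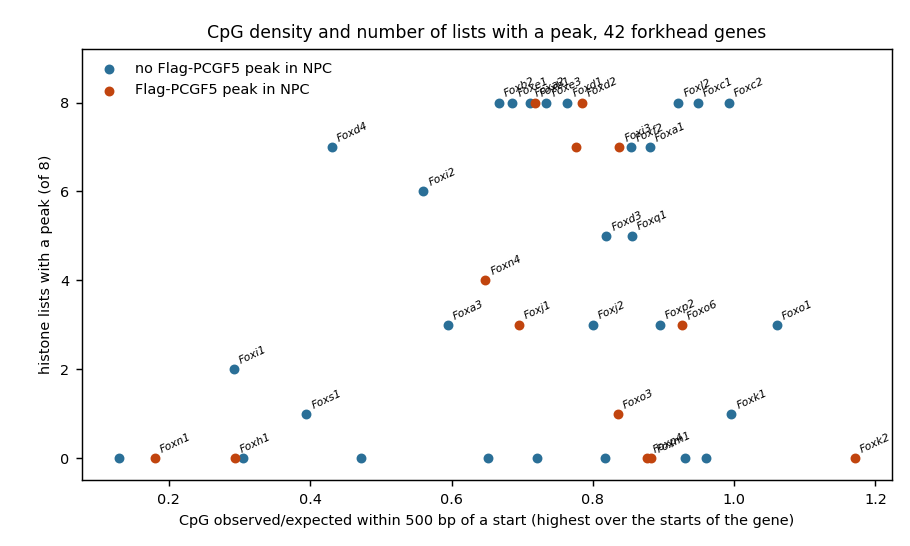
Ratio of observed to expected CpG within 500 bp of a start, highest over the starts of each gene (horizontal axis), and number of histone lists with a peak (vertical axis, of 8), 1 point per forkhead gene; orange points had a Flag-PCGF5 peak in NPC. Of the 13 members at 0 lists 8 lie at a ratio of 0.65 or more, among them Foxk2 and Foxm1, and Foxd4 had peaks in 7 lists at a ratio of 0.43.

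The forkhead heptamer TGTTTAC, read on either strand, occurred within 500 bp of the outermost start at 5 of 42 members (11.9%) and at 9.43% of all genes. It was found at 3 of the 29 members with a histone peak and 2 of the 13 without. The share at members lay near that of all genes.

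Some members lie close together. Foxd2 and Foxe3 on chromosome 4 have starts 17154 bp apart, and both had peaks in all 8 histone lists, but H2AK119ub1 in NPC covered 138 bp in wild-type and 1413 bp in shPCGF5 cells at Foxd2 and 1278 and 166 bp at Foxe3 by whole peaks. By bases inside the window it was 1905 and 1467 bp at Foxd2 and 1306 and 166 bp at Foxe3, the same order at both. Foxq1, Foxf2 and Foxc1 lie in a row on chromosome 13, with 67646 bp between the starts of Foxq1 and Foxf2 and 180830 bp between those of Foxf2 and Foxc1, and all 3 carried H3K27me3 in the 4 populations, whereas Foxq1 had H2AK119ub1 in wild-type NPC alone and Foxf2 had its peaks centred in the window in the other 3 lists. Neighbours of this kind are not independent of each other in any count above.

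Other families of developmental transcription factors were marked to a similar or greater degree. In wild-type NPC H3K27me3 peaks stood at 9 of 9 Pax genes, 10 of 18 Sox genes and 9 of 13 Tbx genes, next to 24 of 42 forkhead genes. H2AK119ub1 peaks stood at 8, 6 and 9 of them, next to 17 forkhead genes, and Flag-PCGF5 peaks at 2, 5 and 1, next to 13. In the Nodal and Smad pathway, in which Foxh1 acts, H3K27me3 peaks stood at 8 of 16 listed genes in wild-type NPC and at 5 in shPCGF5 NPC, H2AK119ub1 peaks at 4 and 3, and Flag-PCGF5 peaks at 3 in NPC. The differences between families were not tested.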

How the data were processed

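ChIP-seq libraries of mouse ES cells and NPC were processed by the authors, per the paper's methods, with Trimmomatic (reads shorter than 36 bp dropped), Bowtie2 on mm9, Picard for duplicates and MACS2, whose version 2.1.0 is from the submitters' processing notes, with 1 library per list. Each deposited peak list holds for every peak its score, its fold over the background and, as −log10, its p-value and q-value. A spike-in scaled the authors' densities but does not enter the lists. The histone lists hold 0 to 8.81% of peaks with a q-value above 0.05. The 6 input libraries were not analysed here.

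Each of the 10 lists was read with Python 3 and pandas. A peak was assigned to each protein-coding gene of GENCODE M1 that had a coding transcript starting within 2500 bp of its centre, which was tested on simulated data and checked against bedtools (0 genes differed in each list). Counts and shares with 95% Wilson intervals were compared with those of all 22232 genes. With 1 library per group there was no test, and depth is unknown. Members, gene lists and comparisons were chosen with earlier results of these data known. Members were all counted; values are given for those with a Flag-PCGF5 peak, with a peak in 1 genotype alone or with the longest cover of their role, and for Foxh1, Foxa2 and Foxd3. A member that enters the counts is not reported by name here. Alternatives were a window of 1000 bp, any base in the window, the higher-scoring 50% of peaks, equal numbers of top peaks (3845 histone, 653 Flag-PCGF5), a q-value limit of 0.05 and, added after seeing the data, bases inside the windows.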

Additional observations from a re-analysis of the deposited data

Results flagged for a closer look

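For H2AK119ub1 the number of forkhead genes with a peak differed between genotypes in opposite directions at the 2 stages, with 1 more in shPCGF5 than in wild-type ES cells and a change of -2 in NPC. With 1 library per group this difference between stages was not tested. Over all genes the number was lower in shPCGF5 cells at both stages, with 1488 and 1324 in ES cells and 1108 and 928 in NPC. The opposite directions at forkhead genes were lost with the higher-scoring 50% of peaks (13 and 12 in ES cells, 14 and 12 in NPC). They were also lost with equal numbers of top peaks and with the window of 1000 bp. Any base in the window and the q-value limit kept them. At Foxa1 the H2AK119ub1 covered length was 321 bp greater in shPCGF5 than in wild-type ES cells, where the wild-type list held no peak, and the change in NPC was -497 bp. At Foxi2 the change was 183 bp in ES cells, again from no listed wild-type peak, and -220 bp in NPC, where the shPCGF5 list held no peak. Neither was tested.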

How the results depend on the processing

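Of 182 recomputed counts, 148 did not reverse and stayed within 1.5 times the reported value, 28 moved further and 6 reversed. A tie was not counted as reversed, so some of the 148 lost their direction. Each list is 1 library of unknown depth, and small counts pass the limit of 1.5 times through a single gene, so the counts of genes listed in 1 genotype or stage alone are the least stable. No paired analysis was possible because each group has 1 library. Shares of all genes were not computed under the alternative settings, so the counts below stand without them. The cause of each shift was not tested, apart from the smaller number of peaks that the stricter settings leave by construction.

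With the window of 1000 bp, H2AK119ub1 stood at 10 forkhead genes in wild-type NPC. Between wild-type stages it was listed in ES cells alone at 7 and in NPC alone at 6, a reversed order. Covered length of H2AK119ub1 in ES cells was higher at 8 in wild-type and 9 in shPCGF5 cells, also reversed. H2AK119ub1 was listed in shPCGF5 NPC alone at 4 and in wild-type NPC alone at 4, a tie. H3K27me3 was listed in NPC at 5 in wild-type alone and 5 in shPCGF5 alone, with longer cover in shPCGF5 NPC at 9, and in wild-type ES cells alone at 5.

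With the higher-scoring 50% of peaks, H2AK119ub1 was listed at 5 genes in wild-type and 4 in shPCGF5 ES cells alone, a reversed order, and at 2 in shPCGF5 NPC alone. H3K27me3 was listed in wild-type NPC alone at 4, and between wild-type stages in ES cells alone at 2 and in NPC alone at 7, with longer cover in shPCGF5 than wild-type ES cells at 5 and in wild-type ES cells than NPC at 2. Flag-PCGF5 peaks stood at 0 members in ES cells and 6 in NPC.

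With equal numbers of top peaks, H3K27me3 stood at 15 members in wild-type and 13 in shPCGF5 ES cells, in wild-type NPC alone at 6, and between wild-type stages in ES cells alone at 2 and in NPC alone at 8. Its cover was longer in wild-type than shPCGF5 ES cells at 11 and in wild-type ES cells than NPC at 2. H2AK119ub1 was listed in shPCGF5 NPC alone at 2, and Flag-PCGF5 in NPC at 0. In ES cells the H2AK119ub1 order between genotypes became a tie. Its cover was longer in wild-type cells at 8 and in shPCGF5 cells at 8, and it was listed in 1 genotype alone at 4 and 4.

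With any base in the window, H2AK119ub1 was listed in shPCGF5 NPC alone at 0 and had longer cover there at 3, and H3K27me3 had longer cover there at 2. Bases inside the windows gave 3 for H2AK119ub1. With a q-value of 0.05 or lower, H3K27me3 was listed in wild-type NPC alone, against ES cells, at 2.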
